A study of Mus musculus with 4 samples.

Results

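Bidirectional promoters are short stretches of DNA from which 2 genes are transcribed away from each other, and this account covers the RBPJ regions that lie over them in alveolar macrophages (AMs). Peaks of the 2 RBPJ libraries that overlapped were merged, and those drawing on both libraries made up the consensus. A region was taken when it was up to 3000 bp wide and touched the space between 2 protein-coding transcription start sites (TSSs) that faced away from each other on opposite strands at most 1000 bp apart. Of 25454 consensus regions, 623 met this rule. They lay over 634 of 999 such head-to-head gene pairs on chromosomes 1 to 19 and X, where 25.8% of all protein-coding genes had a consensus region in the 200 bp upstream of the main TSS. In 15 cases a region lay over 2 pairs, and 4 pairs had 2 regions.

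AMs, the macrophages of the lung airspace, were obtained from 9-wk-old WT mice of the C57BL/6J strain by lavage of the airways and FACS. RBPJ was profiled by HT-ChIPmentation, in which chromatin bound by an antibody is cut and tagged on the beads so that few cells are enough. The series held 4 samples of this single genotype, 2 RBPJ libraries (replicates 1 and 2) and 2 inputs without antibody, and the inputs entered only through the peak calling of the authors. Whether the libraries are from different animals is not given in the labels, and there was no sample lacking RBPJ. Replicate 1 listed 106228 peaks and replicate 2 listed 47224, so most values below are also given per library. Cell identity could not be read from peaks, and none of the 28 AM genes in the marker list, such as Siglecf, Pparg and Car4, belonged to a head-to-head pair. Read depth is not part of the lists.

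RBPJ is the DNA-binding factor to which the intracellular part of activated Notch receptors binds, and without Notch it can recruit corepressors. Its known binding letters center on TGGGAA. Bidirectional promoters in mammals are mostly CpG-rich and TATA-less, serve many housekeeping genes of DNA repair, mitochondria and RNA processing, and are known for motifs of ETS factors, NF-Y and NRF1.

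The spaces below show the DNA between the TSSs of the pairs whose regions were highest in both libraries, chosen by the lower of the 2 fold values among spaces of up to 300 bp that held no annotated exon. They are given on the plus strand of mm10 (GRCm38), so the gene named before the hyphen is transcribed to the left and the other to the right. Capitals mark, on either strand, CCGGAAG (ETS factors), CCAAT (NF-Y), GCATGCGC (NRF1), CGCGAGA (BANP and ZBTB33), ATGGCGG (YY1), TGACGTCA (CREB), ACTACAA (part of the ZNF143 motif) and TGGGAA (RBPJ).
Hspd1-Hspe1, chr1:55088025-55088131: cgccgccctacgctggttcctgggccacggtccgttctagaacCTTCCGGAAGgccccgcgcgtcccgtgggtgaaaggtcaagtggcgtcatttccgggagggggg
Dhx38-Txnl4b, chr8:109565862-109565891: cgtcacttcctgtcgctggcggccagtgca
Rps18-Vps52, chr17:33955678-33955811: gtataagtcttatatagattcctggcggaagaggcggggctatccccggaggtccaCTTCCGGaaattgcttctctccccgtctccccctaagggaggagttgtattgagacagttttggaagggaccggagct
Srsf7-Ttc39d, chr17:80207306-80207459: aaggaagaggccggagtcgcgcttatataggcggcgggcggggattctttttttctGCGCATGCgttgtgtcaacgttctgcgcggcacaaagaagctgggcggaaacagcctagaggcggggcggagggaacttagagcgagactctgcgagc
Hist1h2ae-Hist1h2bg, chr13:23571221-23571395: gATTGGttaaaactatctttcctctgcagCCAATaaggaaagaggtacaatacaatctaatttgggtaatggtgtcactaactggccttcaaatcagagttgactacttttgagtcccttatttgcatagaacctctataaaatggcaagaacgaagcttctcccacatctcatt
Zfp408-Arhgap1, chr2:91649792-91649859: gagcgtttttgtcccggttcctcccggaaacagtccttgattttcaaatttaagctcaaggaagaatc
Rbks-Babam2, chr5:31697628-31697683: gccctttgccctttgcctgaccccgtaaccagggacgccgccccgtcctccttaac

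None of these 7 spaces held TGGGAA, and CCGGAAG stood in the spaces of Hspd1-Hspe1 and Rps18-Vps52. A space need not hold the summits of its region. The summits of Rbks-Babam2 in replicates 1 and 2 lay 880 bp and 831 bp beyond the TSS of Babam2. Those of Zfp408-Arhgap1 lay 187 bp and 156 bp beyond the TSS of Arhgap1. The printed letters therefore do not show what stands at those summits. The next 4 spaces are those highest in fold among the spaces that did hold TGGGAA, which is the only motif in capitals here and reads TTCCCA on the other strand.
Supt7l-Slc4a1ap, chr5:31526774-31526994: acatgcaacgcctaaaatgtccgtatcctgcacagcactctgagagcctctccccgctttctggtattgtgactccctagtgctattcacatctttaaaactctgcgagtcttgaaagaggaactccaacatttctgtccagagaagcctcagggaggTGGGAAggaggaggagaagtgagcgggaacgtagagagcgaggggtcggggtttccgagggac
Mmab-Mvk, chr5:114444061-114444268: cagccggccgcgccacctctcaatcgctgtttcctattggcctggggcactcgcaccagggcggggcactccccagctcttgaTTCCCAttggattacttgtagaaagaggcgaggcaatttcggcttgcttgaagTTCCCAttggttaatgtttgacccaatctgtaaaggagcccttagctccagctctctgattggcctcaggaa
Erp44-Invs, chr4:48279559-48279801: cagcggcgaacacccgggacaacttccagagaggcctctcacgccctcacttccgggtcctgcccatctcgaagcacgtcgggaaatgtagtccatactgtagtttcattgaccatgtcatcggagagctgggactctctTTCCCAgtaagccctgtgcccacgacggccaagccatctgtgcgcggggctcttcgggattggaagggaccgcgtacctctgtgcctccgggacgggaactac
Timm9-2700049A03Rik, chr12:71136685-71136847: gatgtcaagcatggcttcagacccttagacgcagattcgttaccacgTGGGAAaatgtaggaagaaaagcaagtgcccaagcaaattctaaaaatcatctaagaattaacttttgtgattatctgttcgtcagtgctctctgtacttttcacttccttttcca

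Among the 378 bound spaces of 20 to 300 bp without an exon, 42 held TGGGAA. In the space of Mmab-Mvk the letters occurred 2 times. Mvk encodes mevalonate kinase of cholesterol synthesis and Mmab an enzyme of cobalamin metabolism. Timm9 encodes a chaperone of mitochondrial protein import, Supt7l a subunit of the SAGA coactivator and Erp44 a chaperone of the endoplasmic reticulum.

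To find how often head-to-head pairs were bound, pairs and other protein-coding promoters were counted in each peak set. A consensus region lay over 634 of 999 pairs (63.5%, Wilson 95% interval 60.4 to 66.4), whereas 25.8% of all 21668 protein-coding genes had one in the 200 bp window. Replicate 1 had a peak over 753 pairs (75.4%), with 34.1% of all genes as background. Replicate 2 had a peak over 632 pairs (63.3%), with 26.4% of all genes as background. In the same 200 bp window, a consensus region was found at 1203 of the 1966 genes of pairs (61.2%, 59.0 to 63.3) and at 4391 of the 19702 other genes (22.3%, 21.7 to 22.9). Replicate 1 peaks gave 72.7% of the genes of pairs and 30.2% of the other genes. Replicate 2 peaks gave 61.0% and 23.0%. In both libraries, then, the share at head-to-head pairs lay above the share at other promoters, with intervals that did not overlap. The intervals here and below cover counting error over genes only, and the 2 genes of a pair share their DNA.

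The pairs without a region in this sense were of several kinds. Neither library had a peak over 200 pairs (20%), replicate 1 alone had a peak over 126 (12.6%) and replicate 2 alone over 28 (2.80%). Peaks wider than 3000 bp were not counted, here or where pairs below are said to have no peak. In 9 pairs the only consensus region was wider than 3000 bp, and in 2 pairs both lists had a peak but no shared region. The 9 wide regions included those of Hnrnpa2b1-Cbx3, which pairs a gene for an RNA-binding protein with that of a heterochromatin protein, at fold 16.5 and 30.1 in replicates 1 and 2, and of Ddx5-Cep95 at 16.5 and 11.7. Just inside the limit on width were Tmem138-Cyb561a3 with 2896 bp and Mrpl41-Pnpla7 with 2809 bp, and just outside it was Sphk2-Rpl18 with 3105 bp. On the limit of distance, the TSSs of Proser3-Hspb6 were 996 bp apart and those of Btf3l4-Txndc12 987 bp apart. Just beyond it, Nacc1-Trmt1 (1004 bp) and Ddias-Prcp (1005 bp) also had a consensus region.

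Because bidirectional promoters are richer in CpG than most promoters, the comparison was repeated within classes of CpG content. In the 250 bp on either side of the TSS, 74.8% of the genes of pairs and 43.5% of the other genes were CpG-rich, meaning a GC content of at least 55% and a CpG count of at least 0.6 of that expected from base composition. Among CpG-rich promoters, a consensus region was found at 955 of 1470 genes of pairs (65.0%, 62.5 to 67.4) and at 3398 of 8565 other genes (39.7%, 38.6 to 40.7). Among the remaining promoters the shares were 50% (45.6 to 54.4) of 496 genes of pairs and 8.92% (8.40 to 9.46) of 11137 other genes. The difference was thus present on either side of the CpG boundary. Under an observed to expected CpG ratio of 0.4, where only 131 genes of pairs fell, 8.40% (4.75 to 14.4) of these and 4.24% (3.82 to 4.71) of the other genes had a region. At ratios of 0.8 to 1.0 the shares were 69.5% and 44.6%. Some other genes have a long noncoding RNA start in the same head-to-head arrangement, and 355 of these 885 genes (40.1%, 36.9 to 43.4) had a region, against 21.4% (20.9 to 22.0) of the other genes without such a start. Among CpG-rich promoters these shares were 46.2% (42.5 to 50) and 39.1% (38 to 40.2). Whether the genes are active in AMs was not measured in these samples.

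**Figure D1:**
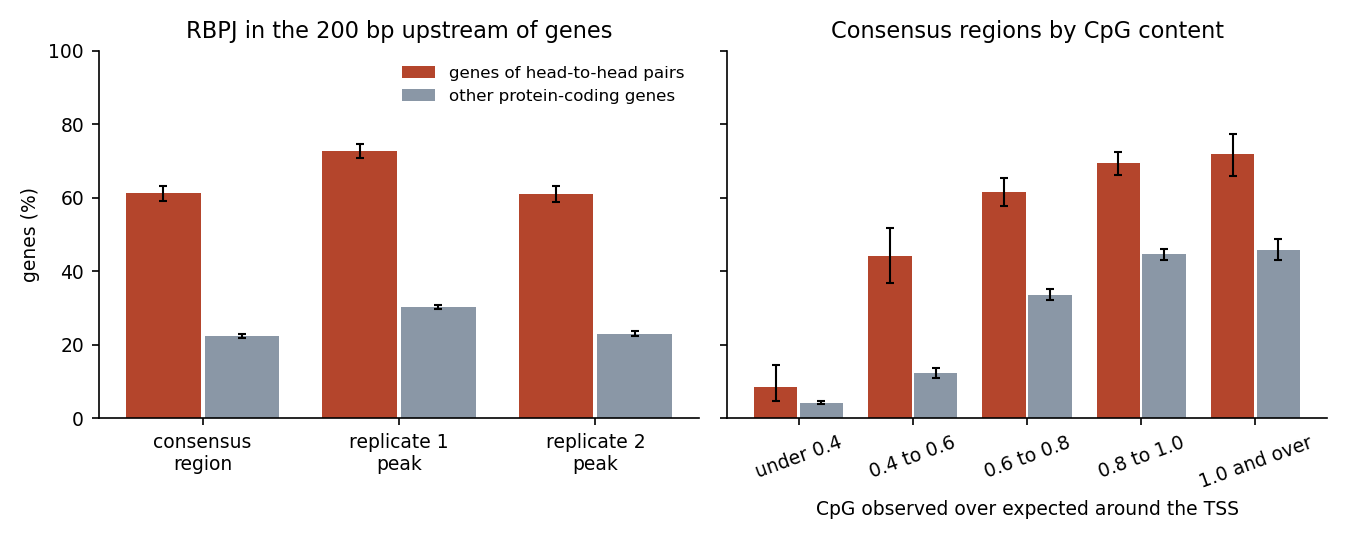
Left, percent of genes of head-to-head pairs (red) and of other protein-coding genes (gray) with a consensus region, a replicate 1 peak or a replicate 2 peak in the 200 bp upstream of the main TSS. Right, percent with a consensus region by CpG observed over expected ratio in the 250 bp on either side of the TSS; bars carry Wilson 95% intervals, and genes of pairs lie higher in every class, from 8.40% and 4.24% under a ratio of 0.4 to 71.9% and 45.9% at 1.0 and over.

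Pairs with TSSs up to 100 bp apart were bound less often than pairs with TSSs 200 to 500 bp apart, while the classes at 100 to 200 bp and at 500 to 1000 bp had intervals that overlapped that of the closest. A consensus region lay over 56.6% (51.7 to 61.5) of 392 pairs with TSSs 1 to 100 bp apart, over 62.3% (56.3 to 67.9) of 265 pairs at 100 to 200 bp and over 74.8% (66.9 to 81.4) of 135 pairs at 200 to 300 bp. At 300 to 500 bp the share was 74.3% (65.0 to 81.8) and at 500 to 1000 bp it was 67.0% (57.6 to 75.2). Replicate 1 gave 68.6% in the closest class, 87.1% at 300 to 500 bp and 77.4% at 500 to 1000 bp, and replicate 2 gave 56.4%, 74.3% and 68.9%. A wider space offers more bases to touch, which was not adjusted for. The share of CpG-rich spaces ran the other way, with 86.0%, 76.6%, 71.1%, 61.4% and 33.0% over the same classes from the closest to the widest. Spaces with a region had a median of 155 bp between the TSSs and those without had 109 bp.

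**Figure D2:**
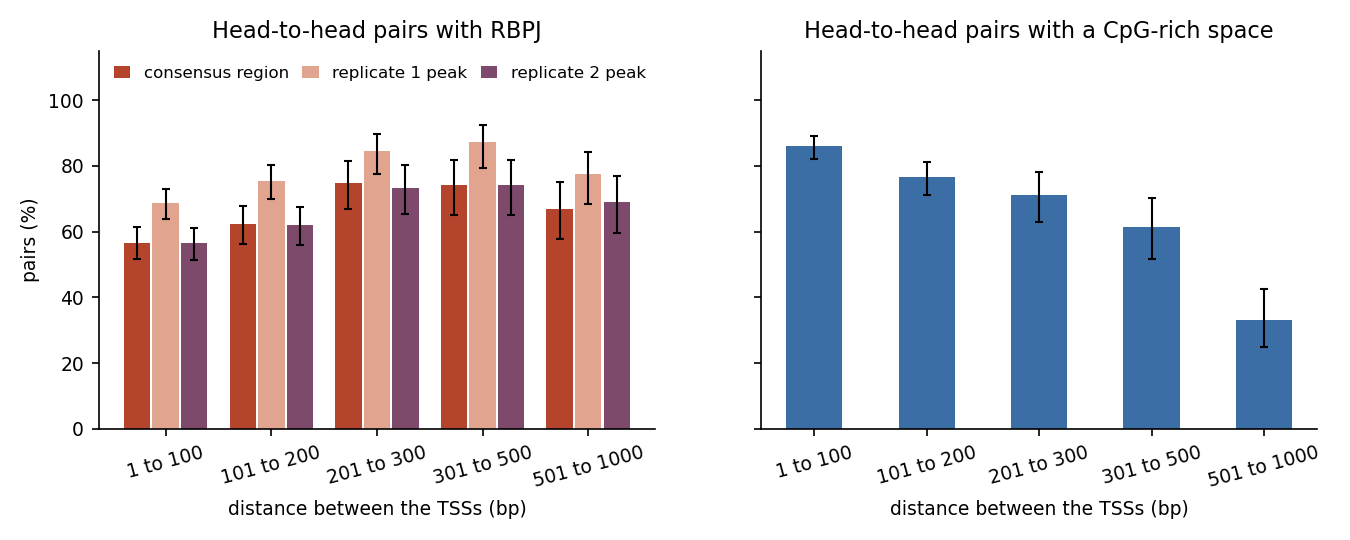
Left, percent of head-to-head pairs with a consensus region, a replicate 1 peak or a replicate 2 peak by the distance between the TSSs in bp. Right, percent of pairs that are CpG-rich in the 250 bp on either side of the middle of the space; bars carry Wilson 95% intervals, and the bound share is 56.6% in the closest class and 74.8% at 200 to 300 bp while the CpG-rich share falls throughout.

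On the X chromosome, 5 of 28 pairs (17.9%, 7.88 to 35.6) and 61 of 894 other genes (6.82%, 5.35 to 8.67) had a consensus region. Unbound X-linked pairs included C330007P06Rik-Ube2a, where Ube2a encodes a ubiquitin-conjugating enzyme, and Apex2-Pfkfb1, where Apex2 encodes a base excision repair nuclease. On the autosomes the share of pairs ranged between 47.4% of 38 pairs on chromosome 10 and 74.4% of 43 pairs on chromosome 12. The labels do not give the sex of the animals.

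To see whether a region sat on the shared space or on either of its ends, the extent and summits of the regions were placed relative to the TSSs. Of the 623 regions, 517 (83.0%) covered both TSSs, 103 covered 1 TSS and 3 covered neither. Their median width was 625 bp, close to the 638 bp of the 4344 regions at other promoters. The summit lay within 150 bp of the middle of the pair in 68.9% (65.1 to 72.4) of regions in replicate 1 and in 65.5% (61.7 to 69.1) in replicate 2. At other promoters, where the strand gives a direction, the median summit position was −97 bp from the TSS in replicate 1 and −71 bp in replicate 2, negative meaning upstream. Regions were taken because they touched the space or the 200 bp upstream. That rule favors summits near the middle or upstream and cover of both TSSs, which was not adjusted for. The higher summit of the 2 libraries fell between the TSSs in 331 regions (53.1%). Per library, the summit lay between the TSSs in 53.8% (49.8 to 57.7) of regions in replicate 1 and in 47.7% (43.8 to 51.6) in replicate 2.

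The position of the summit differed with the distance between the TSSs. In replicate 1, its median distance from the middle was 75 bp, 58.2 bp, 64.0 bp, 108 bp and 254 bp in the classes from the closest TSSs to the widest. Its median distance from the nearer TSS was 41.5 bp, 49.5 bp, 79.0 bp, 108 bp and 152 bp over the same classes. In replicate 2, the distance from the middle was 67.8 bp, 76.5 bp, 72.0 bp, 107 bp and 316 bp, and that from the nearer TSS 46.5 bp, 52.5 bp, 75.5 bp, 93 bp and 118 bp. By these medians the summit was nearer to a TSS than to the middle in both libraries up to 200 bp and in the widest class. In both libraries it was nearer to the middle at 200 to 300 bp. At 300 to 500 bp it was nearer to a TSS in replicate 2, while both medians were 108 bp in replicate 1. A pair offers 2 TSSs but a single middle, which was not adjusted for. Regions covered both TSSs in 95.9% of cases at 1 to 100 bp, and in 45.6% of cases at 500 to 1000 bp. Summits of the 2 libraries were within 100 bp of each other in 372 regions at pairs (59.7%, 55.8 to 63.5) and in 2455 regions at other promoters (56.5%, 55 to 58), with overlapping intervals.

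**Figure D3:**
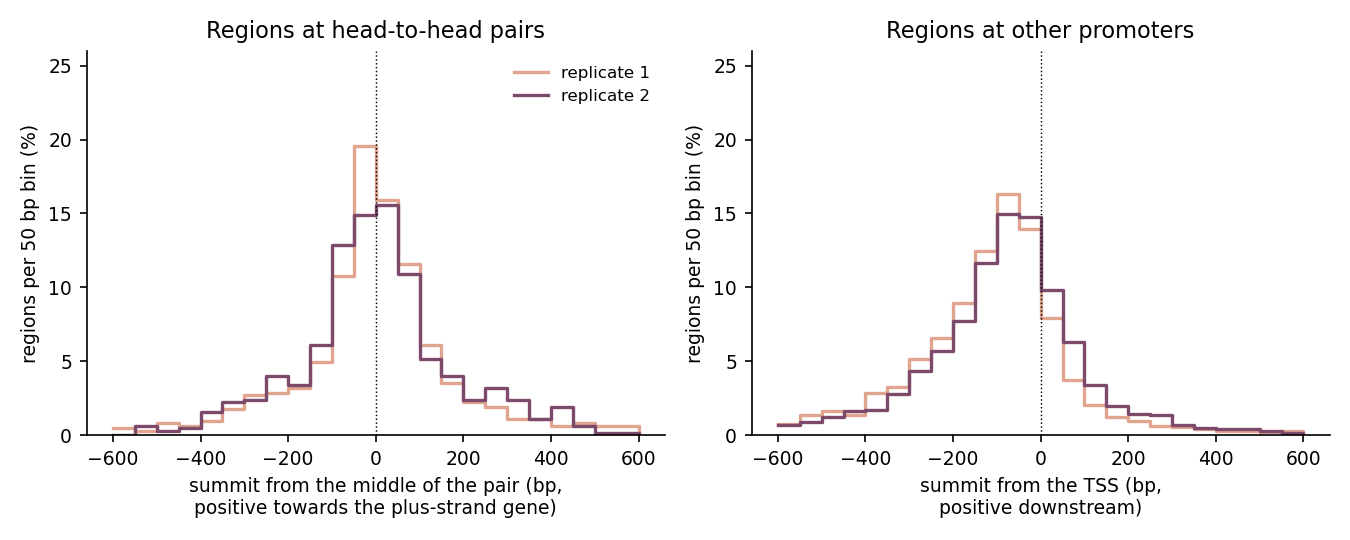
Percent of regions per 50 bp bin by the position of the summit in replicates 1 and 2, relative to the middle of the head-to-head pair (left, positive towards the plus-strand gene) or to the TSS of other promoters (right, positive downstream); summits beyond 600 bp are counted in the total but not drawn. At pairs 68.9% of replicate 1 and 65.5% of replicate 2 summits lie within 150 bp of the middle, and the median positions at other promoters are −97 and −71 bp. Regions were taken because they touch the space or the 200 bp upstream, which favors such positions.

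The height of the regions was described by the fold enrichment of the peak caller, and sets of regions were compared only within a library. The higher summit and the lower fold do compare the libraries. Replicate 1 had the higher fold in 462 of the 623 regions at pairs (74.2%). The higher summit was therefore mostly that of replicate 1, and the lower fold used for ranking mostly that of replicate 2. In replicate 1 the median fold was 8.12 in the 623 regions at pairs (10th to 90th percentile 4.82 to 12.7) and 7.10 in the 4344 regions at other promoters (4.31 to 11.9). In replicate 2 the medians were 6.02 (4.02 to 9.71) and 5.69 (4.02 to 9.37). All consensus regions up to 3000 bp had medians of 6.09 and 5.02 in replicates 1 and 2. The spread among regions was therefore much wider than the difference between the medians. Of the regions at pairs, 18.5% were above the 90th percentile of all these regions in replicate 1 and 23.4% in replicate 2, against 13.0% and 19.1% at other promoters. Among CpG-rich promoters the medians in replicate 1 were 7.61 at pairs and 7.10 elsewhere. Folds of the 2 libraries had a Spearman rho of 0.495 over the 623 regions and 0.535 over the 4344, a description across regions of the same libraries.

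**Figure D4:**
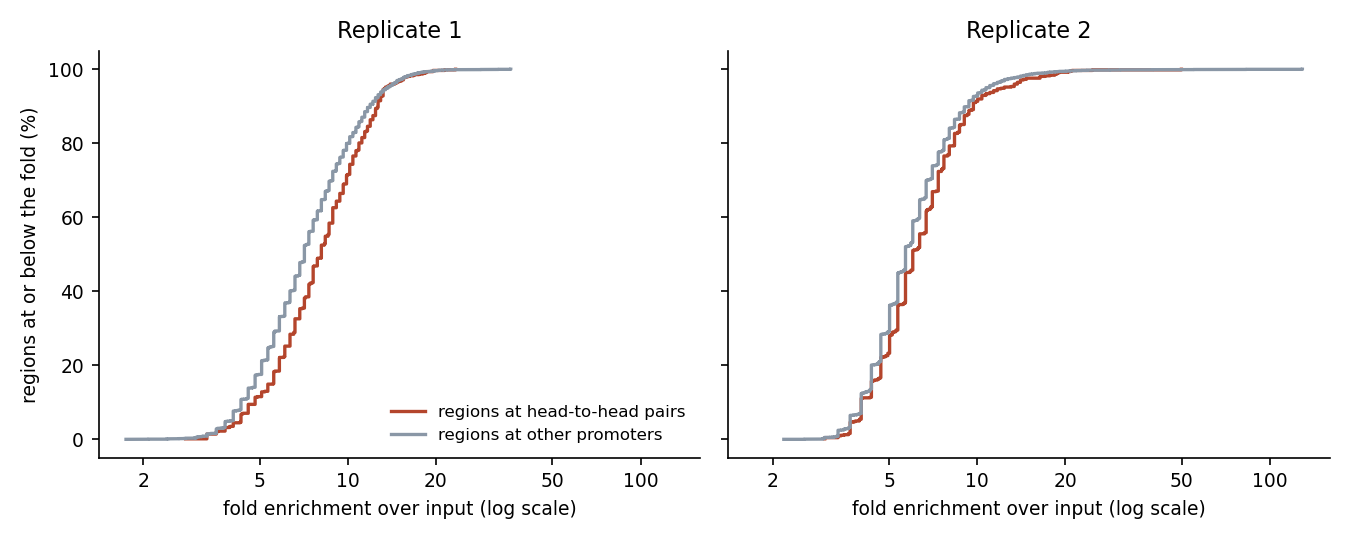
Cumulative percent of regions (vertical axis) at or below a fold enrichment over input (horizontal axis, log scale) in each library, for regions at head-to-head pairs (red) and at other promoters (gray). At the median the curve for pairs lies to the right in both libraries, with 8.12 and 7.10 in replicate 1 and 6.02 and 5.69 in replicate 2. The curves overlap over most of their range. In replicate 2 both have a 10th percentile of 4.02, and the highest folds, 36.0 in replicate 1 and 129 in replicate 2, are at other promoters.

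Peaks over head-to-head spaces also recurred often. Of 759 replicate 1 peaks over a space, 622 (81.9%, 79.1 to 84.5) overlapped a replicate 2 peak, against 73.1% (71.9 to 74.2) of those at other promoters and 26% of all replicate 1 peaks. Of 637 replicate 2 peaks over a space, 606 (95.1%, 93.2 to 96.6) overlapped a replicate 1 peak, against 92.3% (91.5 to 93.0) at other promoters and 66.3% of all.

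Ranked by whichever library gave the smaller fold, the pairs were led by Hspd1-Hspe1, which encodes the chaperonin HSP60 and its cochaperonin HSP10 of the mitochondrial matrix and had fold 15.7 in replicate 1 and 49.9 in replicate 2, the highest replicate 2 value among the regions at pairs. Its TSSs lie 108 bp apart, and both summits fell between them. Dhx38-Txnl4b, with the gene of a spliceosomal helicase, reached 19.5 and 14.7, and Rps18-Vps52, which joins a small-subunit ribosomal protein to a subunit of a Golgi tethering complex, reached 18.5 and 14.7. Next came Srsf7-Ttc39d (14.7 and 16.4), whose Srsf7 encodes an SR splicing factor. The core histone pair Hist1h2ae-Hist1h2bg had 23.3 and 14.4, the highest replicate 1 value. Dnajb4-Fubp1 (19.5 and 14.1), with a J-domain cochaperone gene, was the only pair of the leading 10 with both summits beyond the TSS of the minus-strand gene, 268 bp and 193 bp inside Dnajb4. Gstcd-Ints12 (14.0 and 14.1), with a subunit of the Integrator complex, Zfp654-Cggbp1 (14.0 and 13.7), Erh-Slc39a9 (13.2 and 14.1), with a zinc transporter gene, and Gucd1-Snrpd3 (13.2 and 13.4), with an Sm core protein of the spliceosome, completed the 10.

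At the low end, the 4 regions lowest in the lower fold were Etfdh-4930579G24Rik (8.12 and 3.01), Gnl3-Pbrm1 (5.33 and 3.01), Skp2-Lmbrd2 (7.87 and 3.01) and Dbf4-Slc25a40 (2.79 and 5.69). They include genes for the substrate receptor of a ubiquitin ligase (Skp2), a subunit of a chromatin remodeler (Pbrm1) and the activator of the replication kinase CDC7 (Dbf4). Several regions tied next at a fold of 3.30 in replicate 1, among them Vps9d1-Zfp276 with 5.69 in replicate 2.

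A list of genes, most of them from bidirectional pairs in the literature, was looked up by name. Of the 8 pairs with a listed gene, 6 had a consensus region, beside 63.5% of all pairs. So few pairs cannot be told apart from that share. Mrps12-Sars2, which encodes a mitochondrial ribosomal protein and the mitochondrial seryl-tRNA synthetase, had fold 8.63 and 7.61 in replicates 1 and 2. Atm-Npat, with the kinase that signals DNA double-strand breaks and a coactivator of histone genes, had 6.09 and 4.69. Mcm4-Prkdc, with a subunit of the replicative helicase and the DNA-dependent protein kinase, had 7.61 and 4.69. Gart-Son, with an enzyme of purine synthesis and a splicing cofactor, had 12.4 and 8.37, with both summits beyond the TSS of Son. Psmb1-Tbp, with a proteasome subunit and the TATA-binding protein, had 7.61 and 8.70. Its replicate 1 summit lay 1242 bp beyond the TSS of Psmb1, and its replicate 2 summit lay between the TSSs. No peak of either library lay over Rnaseh2a-Prdx2 or over Psmb9-Tap1, the pair of immunoproteasome and peptide transporter genes of antigen presentation.

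Of 36 Notch pathway and RBPJ cofactor genes, 4 belonged to head-to-head pairs. Ncstn and Psenen encode subunits of gamma-secretase, the protease that releases the intracellular part of Notch. Ncstn-Copa had fold 10.4 and 5.36 in replicates 1 and 2, with summits 777 bp and 306 bp beyond the TSS of Ncstn and so away from the space. Psenen-U2af1l4 had 7.61 and 6.02, with summits 12 bp and 19 bp beyond the TSS of Psenen. Hdac3-Rell2, with a histone deacetylase of corepressor complexes, had 4.06 and 4.02. Plagl2-Pofut1, with the enzyme that adds fucose to Notch receptors, had a peak in replicate 1 only. Of the other 32 genes of the list, 20 had a consensus region in the 200 bp window, where 22.3% of all genes outside pairs had one. Among 10 loci taken from the study, Rxrb formed a pair, Slc39a7-Rxrb, which joins a zinc transporter to a retinoid X receptor, with 8.63 and 7.36. Of the other 9 loci, 3 had a consensus region in the 200 bp window. The study describes peaks in the wider vicinity and regulatory elements of such loci, and regions outside the window were not counted here.

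Pairs were next grouped by the symbols of their genes into 13 families, as a description beside the 63.5% of all pairs. Shares of pairs refer to the whole space, but those of genes elsewhere to the 200 bp window, so the measures differ. In that window 22.3% of all genes outside pairs had a region. Pairs whose only region was wider than 3000 bp counted as unbound, such as Hnrnpa2b1-Cbx3 and Ddx5-Cep95 in the splicing family. Symbols were matched by pattern, so some members were counted in a family without its function. Among them are the Cops genes of the COP9 signalosome, counted with vesicle transport, as in the bound pair Cops5-Cspp1. Ribosomal protein genes had a consensus region at 13 of 14 pairs (92.9%, 68.5 to 98.7), against 71.4% (61.0 to 80.0) of 84 elsewhere, with overlapping intervals. The remaining pair, Sphk2-Rpl18, had only a region wider than 3000 bp, with fold 16.0 and 12.7 in replicates 1 and 2. Vesicle transport genes had one at 21 of 24 pairs (87.5%, 69.0 to 95.7), against 52.0% (44.7 to 59.2) of 177 genes elsewhere. Among the highest were Exoc5-Ap5m1 (9.39 and 10.4), a pair of an exocyst and an adaptor complex gene, and Trappc11-Rwdd4a (11.9 and 9.04), with a TRAPP tethering complex gene. Chaperone genes had one at 15 of 19 pairs (78.9%, 56.7 to 91.5), against 50% (37.9 to 62.1) of 62 elsewhere, with overlapping intervals. Beside Hspd1-Hspe1, these included Pradc1-Cct7 (11.2 and 20.4), with a subunit of the cytosolic chaperonin. Its summits lay 547 bp and 55 bp beyond the TSS of Pradc1 in replicates 1 and 2. Hspb2-Cryab, a pair of small heat shock protein genes, had no peak. Counted per library, ribosomal protein pairs had a peak in 13 of 14 cases in either library, and vesicle transport pairs in 20 of 24 cases in replicate 1 and in 18 of 24 in replicate 2. The families are small, and their intervals are wide.

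Histone genes occurred in 14 pairs, of which 13 joined 2 histone genes, mostly an H2A and an H2B gene. A region lay over 11 of 14 pairs (78.6%, 52.4 to 92.4), against 50% (38.3 to 61.7) of 66 histone genes elsewhere. Their median fold was 15.5 in replicate 1 and 7.36 in replicate 2, with all regions at pairs at 8.12 and 6.02. Hist1h2bf-Hist1h2ad had 16.2 and 10 and Hist1h2ac-Hist1h2bc 21.4 and 9.71. The remaining 3 pairs, Hist1h2ap-Hist1h2br, Hist1h2bq-Hist1h2ao and Hist1h2ba-Hist1h2aa, had no peak in either library. Histone genes are near-identical copies, and the authors kept only reads of high mapping quality, so values at these pairs are uncertain.

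Families of gene expression were bound at shares whose intervals held that of all pairs. Splicing and RNA processing genes had a region at 29 of 42 pairs (69.0%), against 62.3% of 106 genes elsewhere, with a median fold of 10.1 and 7.03 in replicates 1 and 2, and Bag4-Lsm1 and Dhx32-Fank1 had no peak. RNA polymerase, TAF, general factor and Mediator genes had one at 15 of 27 pairs (55.6%, 37.3 to 72.4), against 62.0% (51.0 to 71.9) of 79 genes elsewhere. Med29-Paf1, which joins a Mediator subunit to a subunit of the PAF1 elongation complex, had 15.5 and 8.70 with both summits between the TSSs, while Polr3g-Mblac2 and Taf11-Anks1 had no peak. Aminoacyl-tRNA synthetase genes had one at 6 of 8 pairs, against 15 of 25 genes elsewhere. Among them, Wars-Wdr25 had 10.9 and 13.1, and Hars-Hars2, which joins the cytosolic and the mitochondrial histidyl-tRNA synthetase, 8.12 and 6.36. Zinc finger genes had one at 18 of 26 pairs (69.2%, 50 to 83.5), against 31.1% (26.9 to 35.7) of 424 genes elsewhere.

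Genes of mitochondria, genome maintenance and protein turnover made up the largest remaining families. Genes of the mitochondrial ribosome, import and respiratory chain had a region at 38 of 59 pairs (64.4%, 51.7 to 75.4), against 56.7% (48.7 to 64.3) of 150 genes elsewhere. Ndufs1-Eef1b2, which joins a subunit of respiratory complex I to a translation elongation factor across 3 bp, had 12.4 and 17.7, and Uqcrh-Lrrc41, with a complex III subunit, 18.3 and 11. Ndufs6-Mrpl36, which joins another complex I subunit to a mitochondrial ribosomal protein, had no peak. DNA repair and replication genes had one at 34 of 52 pairs (65.4%, 51.8 to 76.8), against 50% (40.6 to 59.4) of 104 elsewhere, with overlapping intervals. These included Rbks-Babam2 (16.9 and 12.4), with a subunit of the BRCA1-A complex, Top3a-Smcr8 (12.7 and 9.71), with a topoisomerase, and Mcm7-Ap4m1 (13.2 and 8.37), with a replicative helicase subunit, while Mcm9-Asf1a had no peak. Proteasome genes had one at 6 of 10 pairs and at 24 of 40 genes elsewhere, an equal share. Ubiquitin genes had one at 12 of 21 pairs (57.1%, 36.5 to 75.5), against 38.2% (31.0 to 46.0) of 157 genes elsewhere. Solute carrier genes had one at 16 of 23 (69.6%, 49.1 to 84.4), against 20.4% (16.5 to 24.9) of 348 solute carrier genes elsewhere. Pairs in none of the families were bound in 416 of 683 cases (60.9%, 57.2 to 64.5).

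Which letters the regions held was described in windows of 100 bp on either side of the higher summit, searched on both strands, beside windows of the same length over the 200 bp upstream of all protein-coding genes. TGGGAA stood in 117 of 623 regions at pairs (18.8%, 15.9 to 22.0), in 18% (16.8 to 19.1) of regions at other promoters and in 17.9% (17.4 to 18.4) of all promoters. The longer GTGGGAA, which contains it, gave 4.33%, 4.56% and 4.20% in the same order of sets. The intervals of all 3 sets overlapped for both runs of letters. Letters of TGGGAA written backwards without complementing, a check of base composition, gave 7.38% at pairs, 7.64% at other promoters and 8.51% in all promoters. Around the middle of the space, TGGGAA stood at 15.6% of pairs with a region and at 15.1% of pairs without. Backwards these shares were 6.15% and 6.30%. The excess over the backward letters was thus also present at promoters without a region.

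The ETS letters CCGGAAG stood in 166 regions at pairs (26.6%, 23.3 to 30.3), in 17.4% (16.3 to 18.5) of regions at other promoters and in 7.82% (7.47 to 8.18) of all promoters. Written backwards, they gave 4.01% at pairs and 3.84% at other promoters. The share at pairs lay above that at other promoters within 50 bp of the summit (15.4% and 10.5%), within 200 bp (36.1% and 24.7%), and around the summit of replicate 1 (23.9% and 15.5%) or of replicate 2 (27.6% and 18.6%). Around the middle of the space, CCGGAAG stood at 25.7% (22.5 to 29.3) of pairs with a region and at 18.9% (15.2 to 23.2) of pairs without, with overlapping intervals. There CCAAT stood at 38.6% (34.9 to 42.5) of pairs with a region and at 29.0% (24.6 to 33.9) of pairs without. Its intervals did not overlap. The median GC content of these windows was 60.7% at pairs with a region and 64.7% at pairs without, which was not adjusted for.

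For the other motifs, the intervals at pairs and at other promoters overlapped in these windows. ACTACAA stood in 6.90% (5.16 to 9.17) of regions at pairs, 4.63% (4.04 to 5.29) of regions at other promoters and 2.77% of all promoters. It was followed directly by TTCCCA, the other strand of TGGGAA, in 4 regions at pairs and 31 at other promoters, a count added after the values had been seen. TTCCCAG, which overlaps the RBPJ letters, gave 7.70%, 8.17% and 7.72% in the same order. CCAAT gave 39.8%, 36.2% and 31.5%. CREB letters, TGACGTCA, gave 4.49%, 2.72% and 1.99%, and YY1 letters, ATGGCGG, 6.42%, 5.48% and 2.06%. CGCGAGA gave 6.74%, 4.42% and 2.48%, but its letters written backwards gave 6.90% at pairs and 4.53% at other promoters. GGGCGG of SP and KLF factors gave 48.3%, 43.9% and 39.7%, and backwards 48.5% at pairs and 42.9% at other promoters. Backwards it reads GGCGGG, which can overlap GGGCGG in the same stretch, so this is no check of composition. GCATGCGC of NRF1 gave 3.53%, 3.57% and 2.68%, and the E-box CACGTG 7.54%, 8.56% and 5.82%. In other windows some did not overlap. Within 50 bp of the summit these were CREB letters (3.85% at pairs and 1.52% at other promoters) and CCAAT (30.3% and 24.8%). Within 200 bp they were GGGCGG (70.1% and 62.8%), CGCGAGA (9.95% and 6.65%) and ATGGCGG (16.2% and 11.6%). Around the replicate 1 summit they were ACTACAA (7.54% and 4.56%), GGGCGG (47.5% and 41.7%), CGCGAGA (7.06% and 4.24%) and TGACGTCA (5.14% and 2.69%), and around the replicate 2 summit CCGGAAG alone did not overlap.

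Letters of myeloid factors gave lower shares at pairs than at other promoters, with overlapping intervals, except that TTGCNNAA around the replicate 2 summit gave 7.54% at pairs and 7.23% at other promoters. GAGGAAG of PU.1, the ETS factor that specifies macrophages, stood in 8.99% (6.99 to 11.5) of regions at pairs, in 11.5% (10.6 to 12.5) of regions at other promoters and in 8.85% of all promoters. TTGCNNAA of CEBP factors gave 6.58% (4.89 to 8.81), 8.47% (7.68 to 9.34) and 7.01%, and TGANTCA of AP-1 gave 3.85%, 4.17% and 4.65%. Around the middle of the space, TTGCNNAA stood at 6.15% (4.53 to 8.30) of pairs with a region and at 2.47% (1.30 to 4.62) of pairs without, with overlapping intervals. TATAAA of the TATA box gave 4.65% (3.26 to 6.61), 6.84% (6.12 to 7.63) and 9.20%. A match is a run of letters only, and GC content was close in both region sets, with medians of 58.7% at pairs and 57.2% at other promoters.

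**Figure D5:**
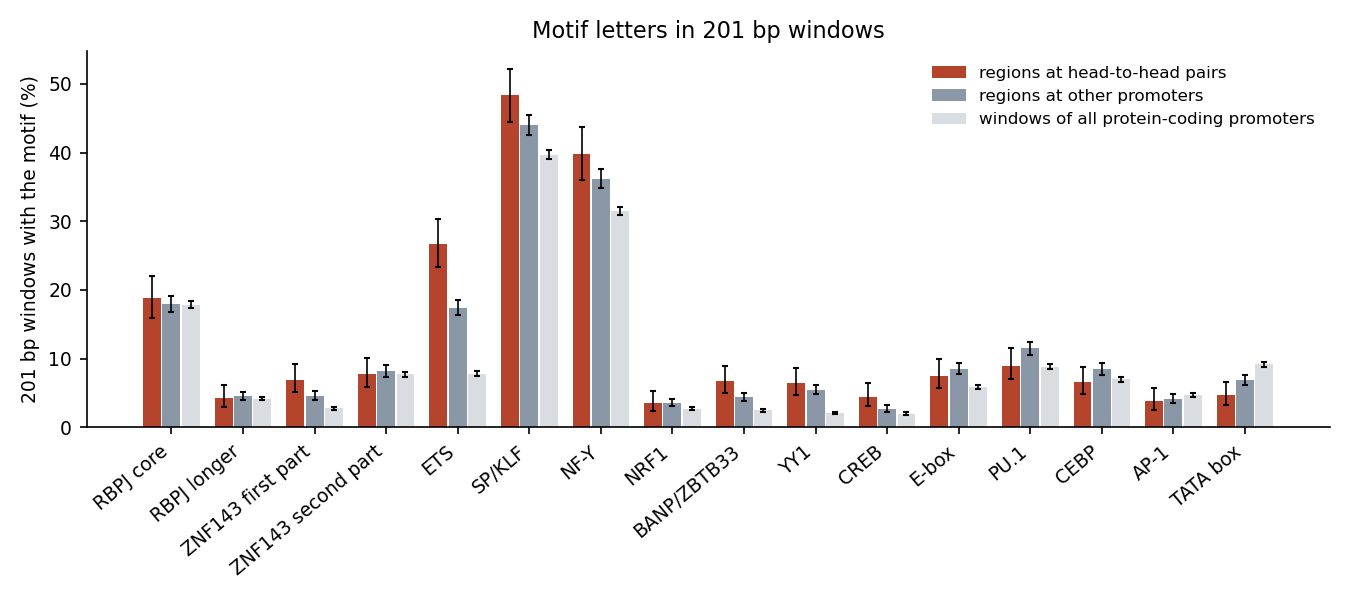
Percent of windows (100 bp on either side of the summit, or the 200 bp upstream of the TSS) that hold each motif on either strand, for regions at head-to-head pairs (red), regions at other promoters (gray) and windows of all protein-coding promoters (light gray), with Wilson 95% intervals. ETS letters stand in 26.6%, 17.4% and 7.82% of them, and the RBPJ core lies between 17.9% and 18.8% in all 3 sets.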

How the data were processed

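Per the labels and the study's methods, the authors demultiplexed reads with bcl2fastq 2.20.0.422 and CASAVA, trimmed them with Cutadapt, aligned them to mm10 with Bowtie2, filtered them with SAMtools and called peaks in each library separately with MACS3, using the input and a q cutoff of 0.05. The deposited peak lists give start, end, summit and the fold enrichment over background as a linear ratio, and, as deposited values, −log10 p and −log10 q. A further deposited display score was not used. Read depth was not used here.

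Coordinates, counted from 1, and sequence came from GRCm38 with basic GENCODE transcripts (mouse release 21). Protein-coding TSSs on opposite strands, at most 1000 bp apart and head to head, formed pairs, at their narrowest distance. A list peak or consensus region touching the space, TSSs included, counted only if up to 3000 bp wide. The counts of recurring peaks had no limit on width. Other promoters were the 200 bp upstream of the TSS used by most transcripts of each gene outside the pairs. A merged region can touch a space through the peak of a single library. NumPy 2.4.6, SciPy 1.17.1 and matplotlib 3.10.9 were used under Python 3.11.15, and the interval code was tested on simulated data. Shares carry Wilson 95% intervals for counting error. With 2 libraries of 1 group no test between groups was run. Named pairs were the 10 highest and 5 lowest by the lower fold, where the fifth lowest is 1 of several ties. Pairs with a gene from the literature list, pairs of other listed genes and those nearest the limits were added. In each family up to 3 highest and up to 2 unbound were taken, and some of all these are named here. The members, lists, families and motifs were chosen with earlier results of these data known. The sequence of a further space that met the rule for printing is not reported here.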

Additional observations from a re-analysis of the deposited data

How the results depend on the processing

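The share of bound head-to-head pairs stayed above that of other promoters under the 13 alternatives run for these shares, by 25.2 to 45.1 percentage points. The alternatives without chromosome X and without predicted genes were chosen after the data had been seen. Over all values, 49 under an alternative moved by less than the spread between the libraries (for the number of regions, by up to 1.5 times) and 18 moved by more. At a −log10 q of at least 5, pairs were bound in 48.5% and other promoters in 15.5% of cases, and 69.0% of replicate 1 peaks over a space recurred. With summits within 100 bp, these values were 37.8%, 12.6% and 50.7%, 57.6% of replicate 2 peaks recurred, 372 regions were kept and 58.6% of summits lay between the TSSs. With 1 TSS a gene, 58.3% of summits did. Leaving out either replicate gave 63.3% to 75.4% of pairs, 23.0% to 30.2% of other promoters, 635 to 753 regions, a median fold of 6.02 to 7.36 and 52.8% to 57.1% of summits between the TSSs. In windows of 50 bp from the summit TGGGAA stood in 10.9% and CCGGAAG in 15.4% of regions at pairs, and in windows of 200 bp in 29.7% and 36.1%, as more or fewer bases were searched. Around the replicate 1 summit CCGGAAG gave 23.9%. The cause of the other shifts was not tested.

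No paired analysis was possible because the inputs that share the replicate numbers had no file of their own here and no test between groups was run. Both libraries come from the same genotype, nothing here says that they are separate animals, and regions where RBPJ is absent cannot be told apart from regions under the detection limit of either list. Neither gene activity nor open chromatin was measured in these samples, and their part in the shares was not tested.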
